A study of Homo sapiens with 6 samples.

Results

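The genes that carry cells from G1 into S phase were examined by their accessible chromatin in the human beta cell line EndoC-βH3. The members were 10 genes fixed by name, namely the D cyclins CCND1, CCND2 and CCND3, the E cyclins CCNE1 and CCNE2, cyclin A2 (CCNA2), the kinases CDK2, CDK4 and CDK6, and the phosphatase gene CDC25A. Of the 108542 accessible regions of the authors' table, 39 belonged to these genes. Of these, 12 were promoter regions, which came within 2 kb of the transcription start site, or TSS, of any protein-coding transcript of a member. The other 27 were distal regions, which touched no promoter window and whose middle lay nearest to a TSS of a member, within 100 kb. A promoter region was listed for 9 of the 10 genes and a distal region for 6, and 5 genes had both.

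Accessibility was measured by ATAC-seq, in which a transposase inserts sequencing adapters into open DNA. There were 3 non-senescent and 3 senescent libraries, each from 100000 cells. The line came from fetal human pancreas and was immortalised with hTERT and with large T antigen of SV40, a viral protein that blocks p53 and Rb, and it also carries the CreER recombinase. Non-senescent cells were untreated controls that keep the transgenes, whereas senescent cells had received 4-hydroxy-tamoxifen for 3 weeks, which activates CreER and excises them. Both groups are labelled WT and come from the same line, and no label says whether replicates were separate cultures. The tamoxifen itself and the loss of the transgenes cannot be told apart in this design.

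The table gives 1 mean signal per region, which the authors took over both groups together. It is a mean of read counts divided by the size factors of each library. No column holds a single library, so neither the spread between replicates nor the depth per library is in the table, and the values below have no error. They describe how open the regions were in both groups at once, and a difference between senescent and non-senescent cells is not reported. Signal was divided by the width of the region, and is given per kb wherever genes are compared. A region is listed where a peak was found, so that a site without a listed region has no value, and is not shown to be closed.

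Progression through G1 is driven by D cyclins bound to CDK4 or CDK6, which phosphorylate Rb and thereby release E2F transcription factors. E2F factors activate the genes of cyclin E and of CDC25A, among others, and cyclin E and later cyclin A activate CDK2 for entry into S phase and for replication. CDC25A removes inhibitory phosphates from CDK2. Adult beta cells divide rarely. In mice cyclin D2 and CDK4 are required for beta cell growth after birth, while in human islets forced expression of CDK6 and D cyclins can drive beta cells into the cycle.

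Markers of cell types were read in the same way. All 17 beta cell markers examined, among them INS, PDX1 and NKX6-1, had a promoter region, and the strongest promoter region of each gene had a median of 1427 in mean signal per kb (range 286 to 3356). Of these 17, 12 lay above the median of all genes (686). Those below it were ABCC8 with 589, SLC30A8 with 541, KCNJ11 and IAPP with 435 each and G6PC2 with 286. Of 19 markers of other pancreatic, stromal, endothelial and immune cells, 15 had a promoter region, with a median mean signal per kb of 171. Of these 15, 5 lay above the median of all genes (686), namely CPA1 of acinar cells with 1298, the macrophage gene CD68 with 921, GHRL of ghrelin cells with 814, IRX2 of alpha cells with 771 and KRT19 of duct cells with 737. The other 10 had 78.4 to 548, among them GCG of alpha cells with 139.9 and HHEX of delta cells with 548. PRSS1, CFTR, PDGFRB and PTPRC had no listed promoter region.

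The sequences on which the description turns are shown here, with matches to the searched motifs in capitals on either strand. The first 4 are promoter windows from RefSeq (GRCh38.p14) that run on the strand of the gene from 250 bases before to 50 after a TSS. They were chosen because CDC25A had the only E2F match among the windows read for members, CCNA2 the only CRE, CDK4 the most open promoter, and CCNE1 the most GC boxes. The last 2 are the middle 300 bases of the strongest distal regions of CCNE1 and CDK6, on the plus strand of hg38. The first is shown because its GC content was above the median of distal regions, and the second because it holds motifs of other factors.
CDC25A promoter, chr3:48188368-48188667, minus strand: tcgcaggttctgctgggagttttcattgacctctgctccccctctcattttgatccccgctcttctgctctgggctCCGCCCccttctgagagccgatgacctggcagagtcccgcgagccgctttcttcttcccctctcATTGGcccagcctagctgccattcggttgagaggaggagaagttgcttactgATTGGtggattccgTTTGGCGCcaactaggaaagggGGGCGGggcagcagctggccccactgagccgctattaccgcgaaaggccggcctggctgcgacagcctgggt
CCNA2 promoter, chr4:121823834-121824133, minus strand: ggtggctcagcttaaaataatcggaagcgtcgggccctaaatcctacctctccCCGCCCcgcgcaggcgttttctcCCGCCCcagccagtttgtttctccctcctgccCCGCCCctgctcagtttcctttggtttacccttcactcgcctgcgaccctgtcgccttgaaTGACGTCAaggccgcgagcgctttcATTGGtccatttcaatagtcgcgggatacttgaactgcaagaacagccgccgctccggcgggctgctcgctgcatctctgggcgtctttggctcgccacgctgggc
CDK4 promoter, chr12:57752261-57752560, minus strand: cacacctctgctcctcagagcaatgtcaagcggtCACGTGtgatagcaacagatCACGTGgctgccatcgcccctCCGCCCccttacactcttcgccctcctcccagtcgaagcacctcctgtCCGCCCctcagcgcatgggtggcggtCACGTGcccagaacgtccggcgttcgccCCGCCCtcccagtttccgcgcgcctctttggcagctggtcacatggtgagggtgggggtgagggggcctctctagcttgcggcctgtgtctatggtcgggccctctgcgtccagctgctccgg
CCNE1 promoter, chr19:29811741-29812040, plus strand: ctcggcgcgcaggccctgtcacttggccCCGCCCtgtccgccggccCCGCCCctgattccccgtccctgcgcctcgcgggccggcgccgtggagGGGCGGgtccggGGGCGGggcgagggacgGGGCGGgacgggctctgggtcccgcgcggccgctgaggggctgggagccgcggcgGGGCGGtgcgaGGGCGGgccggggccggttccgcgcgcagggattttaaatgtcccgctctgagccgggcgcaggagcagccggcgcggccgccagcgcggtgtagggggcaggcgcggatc
CCNE1 distal region, chr19:29844995-29845294, plus strand: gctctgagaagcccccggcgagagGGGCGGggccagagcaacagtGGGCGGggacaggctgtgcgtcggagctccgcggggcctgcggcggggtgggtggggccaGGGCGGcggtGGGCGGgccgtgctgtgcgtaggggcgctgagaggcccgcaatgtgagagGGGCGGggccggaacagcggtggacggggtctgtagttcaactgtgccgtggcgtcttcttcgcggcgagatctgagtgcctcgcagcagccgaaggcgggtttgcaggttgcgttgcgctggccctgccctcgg
CDK6 distal region, chr7:92766608-92766907, plus strand: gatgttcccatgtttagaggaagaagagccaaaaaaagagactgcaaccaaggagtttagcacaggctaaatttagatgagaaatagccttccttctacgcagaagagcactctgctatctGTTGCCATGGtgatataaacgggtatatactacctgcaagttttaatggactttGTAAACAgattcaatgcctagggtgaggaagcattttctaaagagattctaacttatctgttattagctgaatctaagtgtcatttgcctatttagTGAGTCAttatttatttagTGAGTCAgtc

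In the CDC25A window the capitals mark, in order, a GC box, 2 CCAAT boxes, the E2F match TTTGGCGC that begins 44 bases before the TSS, and a second GC box. In that of CCNA2 they mark 3 GC boxes, the CRE (TGACGTCA) that begins 81 bases before the TSS, and a CCAAT box at 56 bases before it. The CDK4 window held 3 copies of the E-box CACGTG, which MYC recognises, and 3 GC boxes. The CCNE1 promoter held 7 GC boxes and the middle of its strongest distal region 5. The capitals in the distal region of CDK6 mark, in order, an RFX match, a FOXA match on the minus strand (GTAAACA) and 2 AP-1 matches (TGAGTCA).

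Among the D cyclins, which answer to mitogens, CCND3 had the most accessible promoter. Its region of highest signal (chr6:41940938-41942333, 1395 bp, with its middle in coding sequence of CCND3) had a mean signal of 991, or 710 per kb, at percentile 64.3 of the 20095 promoter regions of all genes. This region covers the canonical TSS. CCND3 also has distant TSSs more than 100 kb upstream, near TAF8, and 2 further regions lay there. That at chr6:42048382-42048944, in a UTR of CCND3, had 289 per kb (percentile 30.8). The one at chr6:42050257-42051016 had 791 per kb (percentile 68.9), but the TSS nearest to it is that of TAF8, which encodes a subunit of the TFIID complex, so its signal cannot be assigned to CCND3 alone. Of the 11 TSSs of CCND3, 8 lay inside a listed region.

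The other two D cyclins had little listed signal. The only region of CCND1 (chr11:69643043-69644574, in an exon of CCND1) had a mean signal of 142 over 1531 bp. This was 92.7 per kb, at percentile 6.97 of all promoter regions, and the region at the canonical TSS of CCND3 had 7.66 times this value. The region began 1887 bp downstream of the canonical TSS of CCND1, and neither of the 2 TSSs of CCND1 lay inside a listed region. With promoter windows of 1 or 0.5 kb it counted as distal, and CCND1 then had no promoter region. CCND2 had no promoter region, and none of its 3 TSSs lay inside a listed region. The nearest region (chr12:4276897-4277210, 313 bp) began 3135 bp downstream of the canonical TSS, in an intron, and had 281 per kb, at percentile 67.1 of the 55157 distal regions of all genes. Its middle lay 801 bp from a TSS of CCND2-AS1, an antisense RNA gene. The surroundings of both genes held few regions. Within 100 kb of the canonical TSS there were 4 regions of any kind at CCND1 and 3 at CCND2, against a median of 9 over 19662 genes, which put them at percentiles 16.5 and 11.6.

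**Figure D1:**
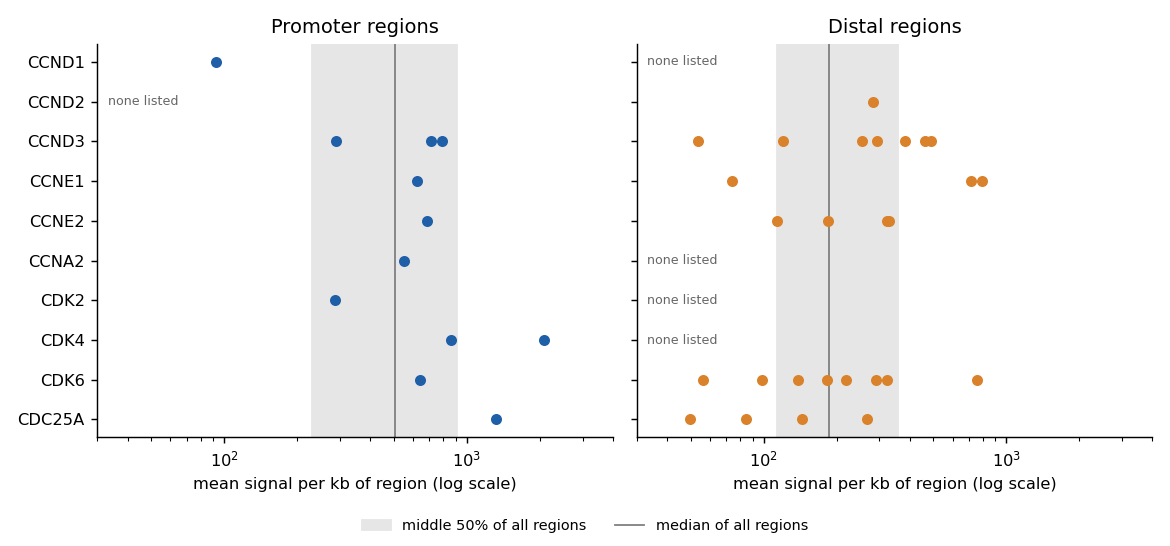
Mean signal per kb of every promoter region (left) and distal region (right) of the 10 genes, on log axes, where each point is 1 region. The grey band holds the middle 50% of all promoter or all distal regions and the line is their median (507 and 187 per kb). CCND1 at 92.7 lies below the band of promoters, and CDC25A at 1313 and CDK4 at 2085 lie above it.

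The E cyclins activate CDK2 at the end of G1, and both have distal regions beside the promoter region. The promoter region of CCNE1 was narrow (chr19:29811606-29812024, 418 bp, percentile 14.4 in width) and had a mean signal of 260, or 623 per kb (percentile 58.6). It covers the canonical TSS of CCNE1 and 2 of its 4 TSSs. A distal region 33153 bp downstream of that TSS (chr19:29844378-29845910, 1532 bp, intergenic) had a mean signal of 1220, which was 4.69 times that of the promoter region. Per kb it had 797, or 1.28 times the promoter, and stood at percentile 92.2 of distal regions. Most of the gap in mean signal between the 2 regions thus goes with their width, which for the distal region was at percentile 98.6. Its middle 300 bases had a GC content of 72.7%, against a median of 47% in all distal regions, and a ratio of observed to expected CpG of 0.879, against a median of 0.220. The medians over all promoter regions were 65.7% and 0.759. The nearest TSS of a gene of any type, at 3326 bp from its middle, belongs to the noncoding gene ENSG00000286538. A second distal region of CCNE1 (chr19:29775152-29775847, with its middle at -36492 bp, where negative is upstream of the canonical TSS) had 713 per kb (percentile 90.5), and 86.9% of the signal summed over the regions of CCNE1, not divided by width, was distal. With TSSs of all genes rather than protein-coding ones, no distal region fell to CCNE1, since noncoding genes lay nearer to all 3.

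The single promoter region of CCNE2 was the widest of the members (chr8:94894666-94897007, 2341 bp, percentile 98.6) and had a mean signal of 1609, or 687 per kb (percentile 62.8). It covers 3 of the 4 TSSs of CCNE2 and also a TSS of NDUFAF6, a gene for an assembly factor of mitochondrial complex I, which lies 1 bp from its middle. The signal of the 2 genes cannot be separated. The 4 distal regions assigned to CCNE2 lay in introns of NDUFAF6, between 9839 and 22947 bp from the TSS, with 113 to 328 per kb, all below its promoter region, and made up 16.7% of the summed signal. All 4 were also assigned to CCNE2 with TSSs of all genes, but this repeats the rule of the nearest TSS. As NDUFAF6 holds these regions and shares the promoter region, the rule does not show to which gene they belong.

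CCNA2 encodes cyclin A2, which binds CDK2 in S phase. Its promoter region (chr4:121822958-121824246, 1288 bp, with its middle in coding sequence) had a mean signal of 711, or 552 per kb (percentile 53.5), and covers the only TSS. No distal region fell to CCNA2, but only 7.97 kb of sequence outside promoter windows lies nearest to its TSS.

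Of the kinases, CDK4 had the most accessible promoter and CDK2 the least. The region at the canonical TSS of CDK4 (chr12:57751867-57752762, 895 bp, with its middle in a UTR) had a mean signal of 1867, or 2085 per kb, at percentile 96.6 of promoter regions. This was the highest value per kb among the 39 regions, and was 3.26 times that of CDK6, 7.30 times that of CDK2 and 22.5 times that of CCND1. Of the 9 TSSs of CDK4, 8 lay inside a listed region. A second region (chr12:57754502-57754993, in an intron of CDK4) had 860 per kb (percentile 72.3) and is shared with MARCHF9, whose TSS is the nearest. CDK6, the partner of the D cyclins beside CDK4, had 640 per kb at its promoter region (chr7:92832668-92834243, 1575 bp, percentile 59.8). This region covers the downstream one of the 2 TSSs of CDK6, and lies 2330 bp from the canonical TSS, which no listed region covered. CDK2, the kinase of cyclins E and A, had 286 per kb (chr12:55966244-55967270, 1026 bp, percentile 30.5). All 3 TSSs of CDK2 lay inside that region, but the TSS nearest to its middle, at 21 bp, was that of PMEL, a gene of pigment cells.

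CDC25A had the second most accessible promoter of the members. Its region (chr3:48187572-48188962, 1390 bp, with its middle in a UTR) had a mean signal of 1825, or 1313 per kb, at percentile 87.6, and covers all 4 TSSs. This was 14.2 times the value of CCND1. The 4 distal regions of CDC25A had 49.6 to 267 per kb and held 13.8% of the summed signal. The strongest (chr3:48151406-48152160, percentile 65.3 of distal regions) lay above the distal median of all genes and the other 3 below it. It lay 36183 bp from the nearest TSS of CDC25A and held an AP-1 match.

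**Figure D2:**
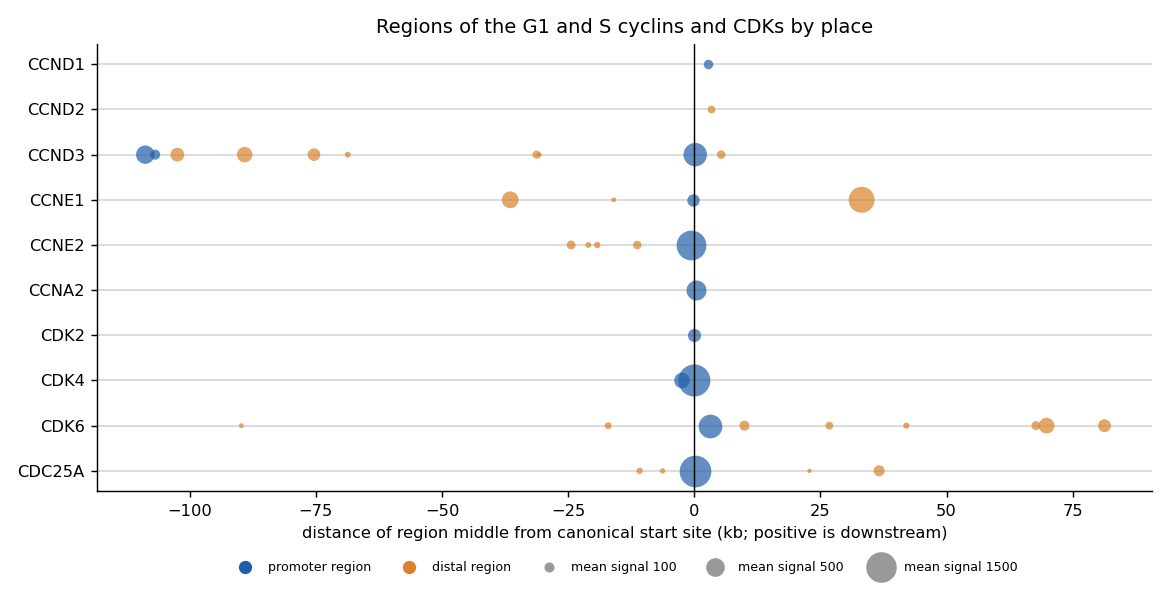
Place of the 39 regions of the 10 genes, as the distance in kb of the middle of each region from the canonical TSS along the direction of transcription, with the area of each point rising with mean signal. Promoter regions of CCND3 appear more than 100 kb upstream at its distant TSSs, and the largest point of CCNE1 lies 33153 bp downstream.

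In order of the strongest promoter region per kb, the genes ran CDK4, CDC25A, CCND3, CCNE2, CDK6, CCNE1, CCNA2, CDK2 and CCND1. The value of CCND1 is that of a region that covers none of its TSSs. The 5 from CCND3 to CCNA2 lay between 552 and 710 per kb, and without replicate values neighbours in this range cannot be told apart. Over the 12 promoter regions the median was 664 per kb (range 92.7 to 2085), against 507 for all promoter regions, and 9 lay above that median. Taken gene by gene, with the strongest region of each, the median of the 9 genes was 640 per kb, against 686 over the 15493 genes with a promoter region, and 4 of 9 lay above it. The percentiles given above for promoters are among all promoter regions, and each of the 9 genes stood lower among genes. CCNE1, CDK6 and CCNA2 were at percentiles 45.4, 46.7 and 40.1 of genes. The members thus spread over the range of all promoters and had a middle value near that of all genes. Of the 43 TSSs of the members, 30 lay inside a listed region. The canonical TSS lay inside one in 7 of the 10 genes, against 66.9% of all genes.

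The promoter regions were rich in GC, with a median of 69.2% in their middle 300 bases (range 53 to 84.7%, highest at CCNE1) against 65.7% for all promoter regions. Of the 12 promoter regions, 5 overlapped the window of a second gene (TAF8 for 2 regions of CCND3, NDUFAF6, PMEL and MARCHF9), against 11.0% of all promoter regions. These shares are not alike, because a region that touches 2 genes can enter a list of genes through either. A share weighted by gene was not computed.

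A distal region was listed for 6 of the 10 members (60%), against 67.1% of all genes. CDK6 had 8, CCND3 had 7, CCNE2 and CDC25A had 4 each, CCNE1 had 3 and CCND2 had 1. The number depends on how much sequence lies nearest to a gene. Over all genes there were 3.39 distal regions per 100 kb of such sequence, and over the members 3.58, which gives 25.5 regions at the mean rate where 27 were listed. CCND3 had 6.34 per 100 kb, CDC25A had 6.37 and CCNE2 had 7.43, all above the mean rate. The counts behind these rates depend on the TSSs and the lowest signal allowed. With TSSs of all genes CCND3 had 3 regions, CDC25A 0 and CCNE2 4, and with a mean signal of at least 50 they had 5, 2 and 3. CDK6 had 4.08 and CCNE1 had 3.07, while CCND2 had 0.885 and CCND1 had 0 in 109 kb, where the mean rate gives 3.70. CDK2 and CDK4 lie among close neighbours and had 1.24 and 1.25 kb of such sequence, so that their count of 0 carries little information.

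**Figure D3:**
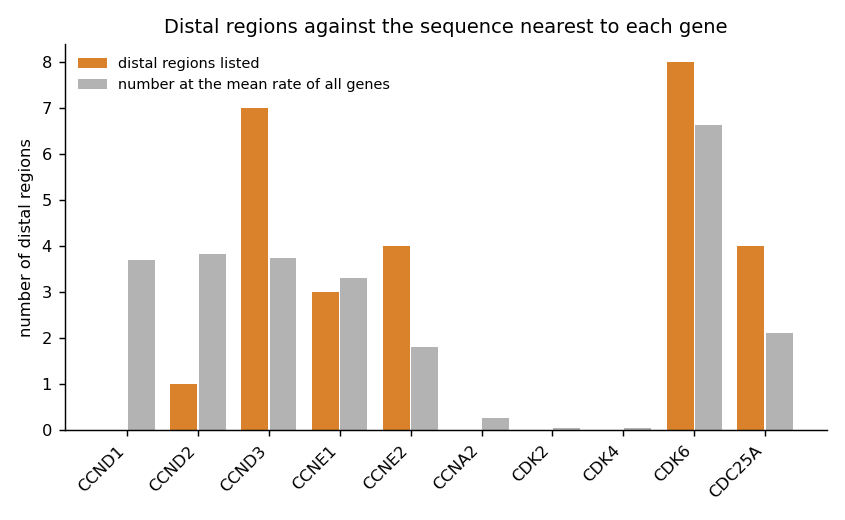
Number of distal regions listed for each gene (orange) beside the number that the mean rate of all genes gives for the sequence nearest to that gene (grey). CCND3 has 7 against 3.74 and CCND1 has 0 against 3.70.

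The distal regions of CDK6 lay mostly in its introns, which held 6 of the 8, and the other 2 lay upstream. The strongest (chr7:92766471-92767043, 572 bp) lay 69816 bp downstream of the canonical TSS, with a mean signal of 433, or 758 per kb (percentile 91.4). Its GC content was low, at 37.7%. The other 7 had 56.3 to 322 per kb, and distal regions held 54.9% of the summed signal of CDK6. At CCND3, 6 of the 7 distal regions lay in introns of its long transcripts and 1 in a UTR. The 3 strongest had 489, 463 and 381 per kb (percentiles 83.1, 81.9 and 76.7), and their middles lay between -102471 and -75380 bp, between the canonical TSS and the distant TSSs upstream. Distal regions held 42.1% of the summed signal of CCND3.

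Over the 27 distal regions the median was 254 per kb (range 49.6 to 797), against 187 for all distal regions, and 15 lay above that median. In 18 the middle lay in an intron of a protein-coding gene, in 1 in a UTR and in 8 in intergenic sequence. The median distance from the nearest TSS was 22.9 kb, against 24.0 kb in all genes. A mean signal under 50 was found in 8 of 27, against 31.6% of all distal regions. Their median GC content was 47%, the same as in all distal regions.

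Motifs were sought on both strands in the middle 300 bp of each region and set against the share of all regions of the same kind. The letters of E2F (TTTCCCGC, TTTCGCGC, TTTGCCGC or TTTGGCGC), of CHR, the element of late cell-cycle genes (TTTGAA), of CRE (TGACGTCA), of AP-1 (TGANTCA), of MAF (TGCTGAC) and of homeodomain factors (TAATTA) were found in 0 of the 12 promoter regions, where all promoter regions had 3.62%, 8.63%, 1.41%, 4.51%, 4.32% and 2.39%. The CTCF, RFX and interferon letters given below were also in 0, against 3.68%, 0.448% and 2.25%. With 12 regions, a count of 0 has an exact 95% interval up to 26.5%. CHR was sought only as TTTGAA and E2F only as the letters given, so their counts do not cover other forms of these elements. GC boxes (GGGCGG) were in 8 of 12 (66.7%, against 55.5%), CCAAT boxes in 2 (16.7%, against 24.2%), the FOXA motif TGTTTAC in 2 (16.7%, against 3.11%), and the E-box CACGTG, the STAT motif TTCNNNGAA and the TEAD motif GGAATG in 1 each (8.33%, against 6.61%, 5.43% and 10.7%). The 2 regions with FOXA letters belong to CCND3 and CCNE2. Read over their whole length, 2 of the 12 promoter regions held E2F letters, at CCNE1 and CDC25A (16.7%, against 11.2% of all promoter regions read in the same way). CRE letters were then found at CCNA2, CHR letters at CDK6 and at the CCND3 region nearest to TAF8, and AP-1 letters at CCND3 and CDK4. CTCF letters were then at CCND1, RFX letters at CDK4 and the interferon letters at the same CCND3 region near TAF8. MAF and homeodomain letters remained absent. Apart from E2F, the share of all regions was not computed over whole regions. Whole regions also held CCAAT boxes at CCND1, CCND3, CCNA2 and CDC25A, and E-boxes at CCND1, CCND3, CCNE2 and CDK2. GC boxes were then in all 12 promoter regions. In the RefSeq windows around TSSs, which were read for 6 genes in 9 windows, E2F letters were in 1, against 3.31% of 35116 windows of all genes. CCAAT boxes were in 4 of these 9 windows, E-boxes in 2 and CRE letters in 1, against 34.6%, 7.26% and 1.85%. CHR and AP-1 letters were in 0 of them, against 15.2% and 7.71%.

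In the distal regions CHR letters were in 9 of 27 (33.3%, exact 95% interval 16.5 to 54.0%), against 19.8% of all distal regions, at CCND2, CCND3, CDC25A and CDK6. CCAAT was in 6 (22.2%, against 29.5%) and FOXA in 4 (14.8%, against 9.26%). AP-1, STAT and GC boxes were in 3 each (11.1%), against 11.3%, 8.61% and 11.1%. The E-box and the MAF letters were in 2 each (7.41%, against 5.02% and 7.67%). Found in 1 region each (3.70%) were the homeodomain letters, TEAD, a core of the CTCF motif (CCANNAG followed directly by NNGGC) and RFX (GTTGC followed directly by CATGG), against 9.57%, 14.1%, 6.44% and 0.638%, while E2F, CRE and the interferon element (TTTC, any 2 bases, TTTC) were in 0, against 0.897%, 0.319% and 3.78%. The CTCF match was in the only region of CCND2. Every member share had an interval that held the share of all regions, and no test was made.

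**Figure D4:**
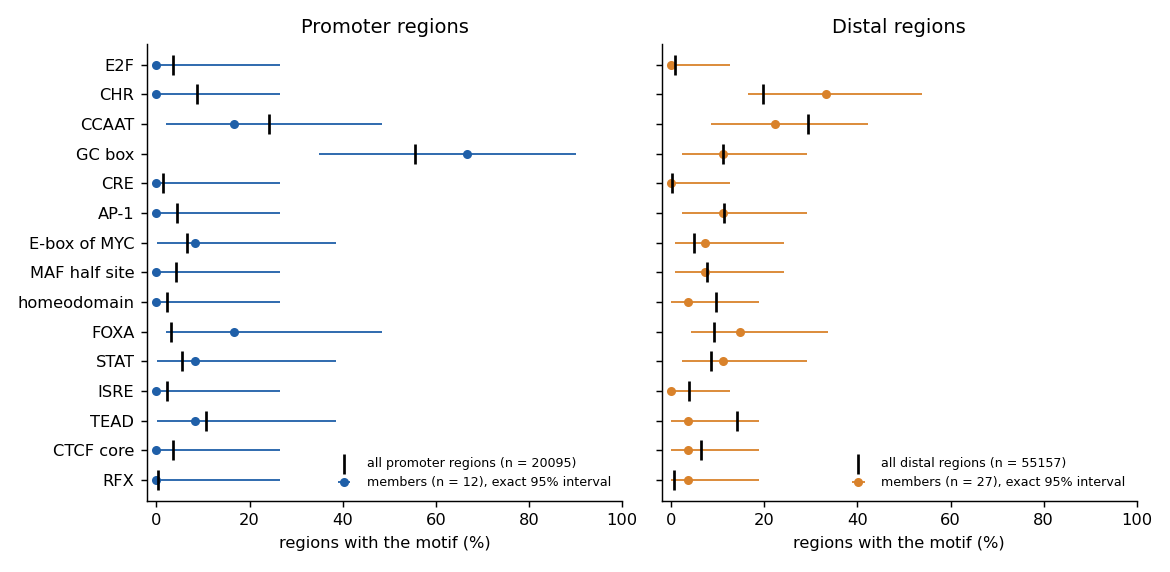
Share of the 12 promoter and 27 distal regions of the members that hold each motif in their middle 300 bp, with exact 95% intervals for counting error only, beside the share in all promoter or distal regions (black marks). GC boxes are the most frequent at promoters (66.7%) and CHR letters at distal regions (33.3%).

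Other genes of the same pathway, from a list of 38 that holds Rb family genes, E2F factors, kinase inhibitors and mitotic partners, all had a promoter region, against 9 of the 10 members and 78.7% of all genes. Their strongest promoter regions had a median of 820 per kb, against 640 in the members and 686 in all genes, and 23 of the 38 lay above that of all genes. The lowest was MYC, a growth factor target that acts upstream of CDK4 and the D cyclins, with 199 per kb. The highest was CKS1B, a small subunit of CDK complexes, with 2736 per kb. Of the members, CCND1 alone lay below this range. Distal regions were listed for 30 of the 38 genes, with a median of 2 per gene and at most 8. The median of the members was also 2 and their highest count was also 8, while the beta cell markers had a median of 9 (range 0 to 26). Markers of other cell types had a median of 4, and all genes had a median of 1.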

How the data were processed

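Libraries were grouped by their labels. Per the study's methods, the authors trimmed reads (Trim Galore), mapped them to hg38 (Bowtie2), discarded mitochondrial reads and duplicates, corrected positions for the transposase offset, found peaks with MACS2, merged them, counted reads in each and ran DESeq2, with versions not given in the sources used here. The mean signal in the deposited table is the authors' mean of normalised counts. The other 5 columns hold the fold change between the groups, its standard error, a test statistic and 2 kinds of p-value. They are the authors' own comparison and were not used. With no value per library, the planned edgeR test was not run.

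Regions were read from the table with pandas 2.3.3. It was checked that 0 regions pass a chromosome end of hg38. Whether starts count from 0 or 1 is not stated, so a start may be off by 1 base. TSSs came from GENCODE 44. Sequence was read with pysam 0.24.0 and samtools 1.23.1. Percentiles are shares of regions, or genes, at or below a value. RefSeq windows were in the table used for 6 members. Those of CCND1, CCND2, CCNE2 and CDK2 were not used here. Intervals are exact (Clopper-Pearson, 95%) and cover counting error only. Assignment and motif search were tested on simulated data. The members and lists were chosen with earlier results of these data known. Named genes were all members, genes sharing their promoter regions, cell type markers and the extremes of the pathway list. The genes named where TSSs of all gene types were searched were added after seeing the data.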

Additional observations from a re-analysis of the deposited data

How the results depend on the processing

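No paired analysis was possible because each region has a single mean over all libraries, although both groups carry the replicate numbers 1 to 3. For the same reason edgeR, DESeq2, a count filter and the omission of single libraries were not run. Among values for the members as a set, 29 stayed within a ratio of 1.5 of those reported or inside their interval, under promoter windows of 1 and 0.5 kb, a distal limit of 50 kb, a mean signal of at least 50, TSSs of all genes, promoter signal summed or undivided by width, autosomes alone or other motif windows, and 3 moved by more. Some of the 29 could not move, such as promoter values under another distal limit. The E2F share counts among the 29 because its interval is wide, although it went from 0 to 16.7% over whole regions and 11.1% in windows around TSSs. With TSSs of all genes, 17 distal regions were assigned, at 3 members. Some regions then fell to noncoding genes such as MIR4443 and SNRPFP4, while the promoter regions of the members went from 12 to 14. The distal regions of CDK6 went from 8 to 10. Counting each region that is no promoter within 100 kb of a canonical TSS, chosen after seeing the data, gave 51, since regions nearer to other genes were then included. Among values for single genes, 75 stayed and 11 moved. Those that stayed include the counts of 0 at CDK2 and CDK4, which have little sequence that could hold a distal region. With windows of 1 or 0.5 kb the only promoter region of CCND1 became a distal region, which left CCND1 without a promoter region. CDK6 had 4 distal regions with a limit of 50 kb, and CDC25A had 2 with a mean signal of at least 50. With TSSs of all genes CCND2, CCNE1 and CDC25A had 0 and CCND3 had 3. Without division by width, CCNE2 stood at percentile 80.8 of genes, against 50.2, CCNE1 at 17.8, against 45.4, and CCND1 at 11.1, against 4.49. The table does not hold the depth of each library, and no limit of detection was computed.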
